A study of Mus musculus with 2 samples.

Results

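The regions described here are the microRNA genes of the mouse genome, 1182 of the 49997 genes in the RefSeq gene table of GRCm38.p6 (mm10). They were picked by name alone, as genes whose symbol is Mir followed by a digit, and no measured value entered this rule. The rule itself was set with earlier results of these data known. Of these, 1169 are hairpins, the short stem-loops from which the mature microRNA is cut, with a median length of 80 bp. The other 13 are long noncoding host genes named after the microRNA they carry, such as Mir17hg. A further 59 microRNA genes carry names outside this rule, among them 11 named Mirlet7, and were not counted. Trimethylation of lysine 4 on histone H3 (H3K4me3) was mapped by chromatin immunoprecipitation and sequencing (ChIP-seq) in E14TG2a.4 cells, embryonic stem cells taken from a male mouse of strain 129/Ola and grown as an established line. All cells form 1 group, with 2 biological replicates and no treatment, time course or other genotype in the labels, and the study holds no contrast between conditions.

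MicroRNAs are cut from longer primary transcripts, most of them made by RNA polymerase II. Some hairpins have a promoter of their own, and others lie in an intron or exon of a host gene and are made from the host's transcript. The mark H3K4me3 sits on nucleosomes around the start of transcription, at active promoters and also at many CpG-rich promoters whose genes are silent, so a peak marks a promoter and does not measure how much microRNA is made. A mature microRNA finds its targets mainly through its seed, bases 2 to 8 from its 5′ end, and microRNAs with the same seed are grouped as a family.

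The microRNAs most closely tied to embryonic stem cells share a small set of seeds, which is why their sequences are shown here. The Mir290 to Mir295 cluster is the most abundant microRNA cluster of mouse embryonic stem cells, the Mir302 to Mir367 cluster comes up as cells leave the naive state, and the Mir17 to Mir92a cluster is widely used in dividing cells. The sequences below are the RefSeq mature microRNAs of GRCm38.p6, written 5′ to 3′ with the seed in capitals. The first group has the seed AAGUGCU, the second AAAGUGC and the last AUUGCAC, and the first and second both contain AAGUGC.
mmu-miR-291a-3p: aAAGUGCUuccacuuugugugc
mmu-miR-294-3p: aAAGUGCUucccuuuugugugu
mmu-miR-295-3p: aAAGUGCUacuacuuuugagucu
mmu-miR-302b-3p: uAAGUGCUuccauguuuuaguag
mmu-miR-302d-3p: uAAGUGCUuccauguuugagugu
mmu-miR-17-5p: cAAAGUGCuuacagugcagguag
mmu-miR-20a-5p: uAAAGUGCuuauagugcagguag
mmu-miR-106a-5p: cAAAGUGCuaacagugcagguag
mmu-miR-106b-5p: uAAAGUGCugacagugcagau
mmu-miR-92a-3p: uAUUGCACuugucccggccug
mmu-miR-363-3p: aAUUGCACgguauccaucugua
mmu-miR-25-3p: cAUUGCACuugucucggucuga
mmu-miR-367-3p: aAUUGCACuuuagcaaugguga
All of these come from 5 genomic clusters, and each of those clusters held an H3K4me3 peak in both replicates, at signals that differed widely.

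The data are lists of peaks, not reads, and the depth of the libraries is unknown. The mm10 list of the authors that rests on both replicates, the replicated list, held 62128 peaks, while the lists of replicates 1 and 2 held 86781 and 83750 and the pooled list 98928. At least 1 start of each of 10 embryonic stem cell marker genes, Pou5f1, Sox2 and Nanog among them, carried a replicated peak within 1 kb. Signals ran from 16.1 to 69.45. Of all annotated gene starts, counted singly, 55.0% carried such a peak. Starts of lineage markers were also marked in part, at 4 of 6 fibroblast genes, 2 of 3 trophectoderm genes and 3 of 4 primitive endoderm genes. Col3a1, Elf5 and Afp had no peak in any mm10 list. Since the mark also covers silent promoters, these peaks do not count cells of another type, and a share of such cells was not tested.

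A microRNA gene was called marked when a replicated peak overlapped the stretch from 1 kb before its lower coordinate to 1 kb after its upper one. By this rule 392 of 1182 members were marked, 33.2% (Wilson 95% interval 30.5 to 35.9, which covers sampling of genes only). The same rule called 47.4% of all genes in the table, most of which are far longer than a hairpin, and 21.1% of the 2793 other short noncoding genes (snoRNA, snRNA, tRNA and guide RNA genes). The short genes differ among themselves, with 66.9% of tRNA, 16.2% of snoRNA and 9.36% of snRNA genes marked. Among hairpins alone, 382 of 1169 were marked, 32.7% (interval 30.1 to 35.4).

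Each replicate gave nearly the same count. In the list of replicate 1, 405 hairpins were marked, and in that of replicate 2, 396, which is 34.3% ± 0.544 (SD, n = 2). The same lists called 48.6% and 48.5% of all genes, and 21.7% and 21.6% of the other short genes. Both replicates marked 376 hairpins, replicate 1 alone 29, replicate 2 alone 20, and 744 had no peak in either. At the 310 loci marked in both, the signals of the replicates ranked alike, with Spearman's rho of 0.957, given as a description across loci of 1 line. In the authors' pooled list 432 hairpins were marked, where 50.5% of all genes and 22.9% of the other short genes were called.

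Hairpins between genes and hairpins inside another gene were marked in similar shares, with intervals that overlap. Intergenic hairpins were marked in 75 of 245 cases, 30.6% (interval 25.2 to 36.7), and hairpins within another gene in 307 of 924, 33.2% (30.3 to 36.3). These intervals count each hairpin singly, though neighbours share peaks. By locus, with hairpins less than 10 kb apart joined, 52 of 163 were marked between genes, 31.9%, and 269 of 741 within genes, 36.3%. Over all members, host genes included, the counts were 81 of 253 and 311 of 929. The replicates gave 31.4% ± 0.577 for intergenic hairpins and 35.0% ± 0.536 for those within a gene (SD, n = 2). The other short noncoding genes were marked in 20.0% between genes and 22.1% within genes. Hairpins inside protein-coding genes (264 of 798) and inside long noncoding genes only (40 of 115) were marked in 33.1% and 34.8%. On the strand of the host 205 of 552 hairpins were marked, 37.1%, and on the opposite strand 28 of 87, 32.2%, with intervals that overlap.

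**Figure D1:**
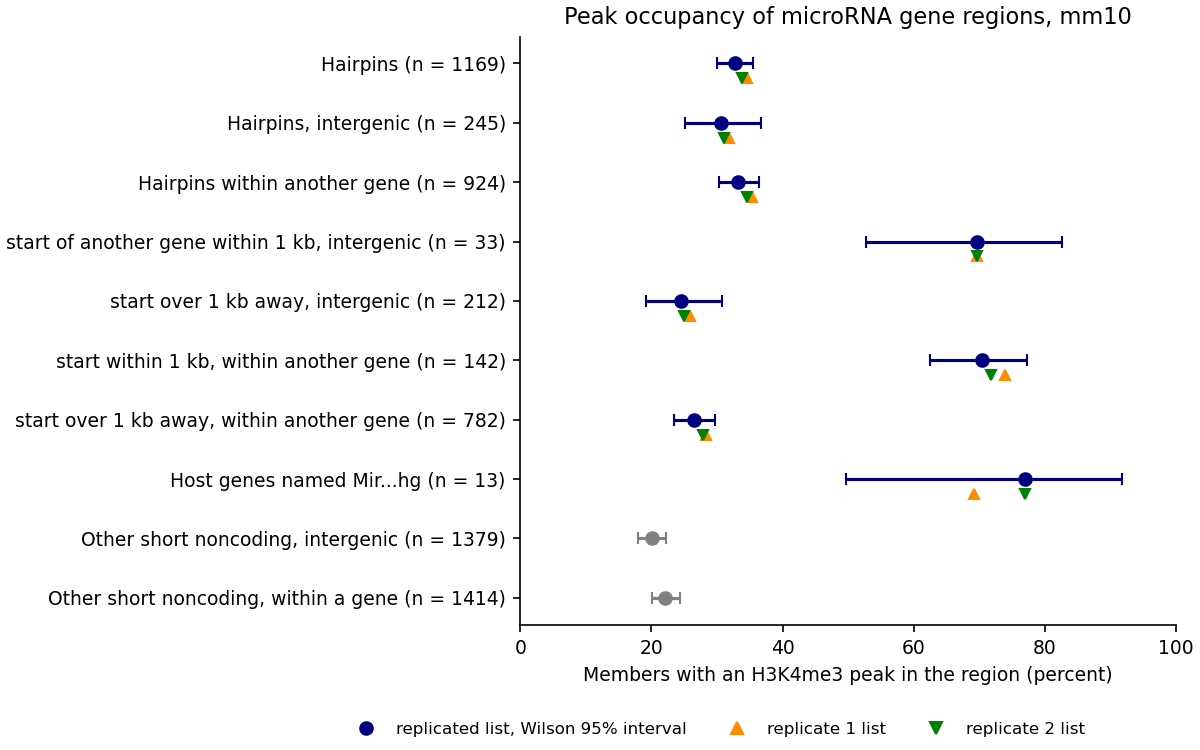
Share of microRNA hairpins and host genes with an H3K4me3 peak in the region (x axis, percent), with Wilson 95% intervals for the replicated list and triangles for each replicate's own list. Intergenic hairpins at 30.6% and hairpins within genes at 33.2% lie close together, while hairpins within 1 kb of the start of another gene lie near 70%.

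Peaks were not spread evenly over hairpins, since neighbours share them. Hairpins less than 10 kb apart were joined into 898 loci, of which 88 held at least 2 hairpins, and 316 loci were marked, 35.2%. In the regions of all hairpins there were 381 distinct peaks, of which 40 lay in the regions of at least 2 hairpins. The highest peak signal at a marked hairpin had a median of 18.8, with quartiles of 5.50 and 45.0. With each of the 381 distinct peaks counted once, the median signal was 12.8. The signal is the authors' ratio per peak and has no unit. Over all replicated peaks the median signal was 5.32, over those within 1 kb of a gene start 26.6, and over the rest 4.31. Hairpins aside, a gene without an annotated start position counts here, and in all distances below, with both of its ends as starts. The strongest peak at a marked hairpin had a median width of 1968 bp, against 842 bp over all replicated peaks and 1689 bp near gene starts. The medians of 18.8 and 1968 bp take the strongest peak per hairpin and repeat shared peaks. They are therefore not like for like with values over all peaks. Intergenic hairpins had a median signal of 22.6 and those within genes of 18.3, and the joined domains around them, made of peaks less than 1 kb apart, had median widths of 4226 and 2574 bp. With distinct peaks counted once, the median signals were 15.5 and 11.1.

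Hairpins near the start of another gene were marked far more often than hairpins away from one. Within 1 kb of such a start, 23 of 33 intergenic hairpins were marked, 69.7% (interval 52.7 to 82.6), and 100 of 142 within genes, 70.4% (62.5 to 77.3). Beyond 1 kb the counts were 52 of 212, 24.5% (19.2 to 30.7), and 207 of 782, 26.5% (23.5 to 29.7). The intervals of near and far hairpins do not overlap in either place, though they count hairpins of 1 locus singly. By locus the marked shares were 69.2% near and 24.5% far between genes, and 68.5% near and 30.1% far within genes. The other short noncoding genes within 1 kb of a start were marked to the same extent, 69.4%.

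Farther from starts the share was lower, though not at each step. Among intergenic hairpins, 8 of 17 were marked at 1 to 2 kb (47.1%), 19 of 37 at 2 to 5 kb (51.4%), 10 of 31 at 5 to 10 kb (32.3%), 14 of 96 at 10 to 50 kb (14.6%) and 1 of 31 beyond 50 kb (3.23%). That single hairpin is Mir137, a microRNA of the nervous system, 64378 bp from the nearest other start, with a signal of 11.7 in the replicated list, 11.3 in replicate 1 and 9.59 in replicate 2. Hairpins within genes gave 68.3%, 36.2%, 29.7%, 21.5% and 1.49% in the same bins. The last of these was 2 of 134 hairpins at 59 loci. It includes the 71 unmarked hairpins of 1 locus inside Sfmbt2, described below. The other short noncoding genes gave 25.5%, 21.3%, 11.9%, 4.82% and 1.38%. From 1 to 50 kb the intervals of hairpins within genes lay above those of the other short genes in each bin. In these bins the other short genes were not split by place, so those between genes are among them. Hairpins and other short genes differ in CpG content and in the genes they sit in, and the part of either in this gap was not tested.

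**Figure D2:**
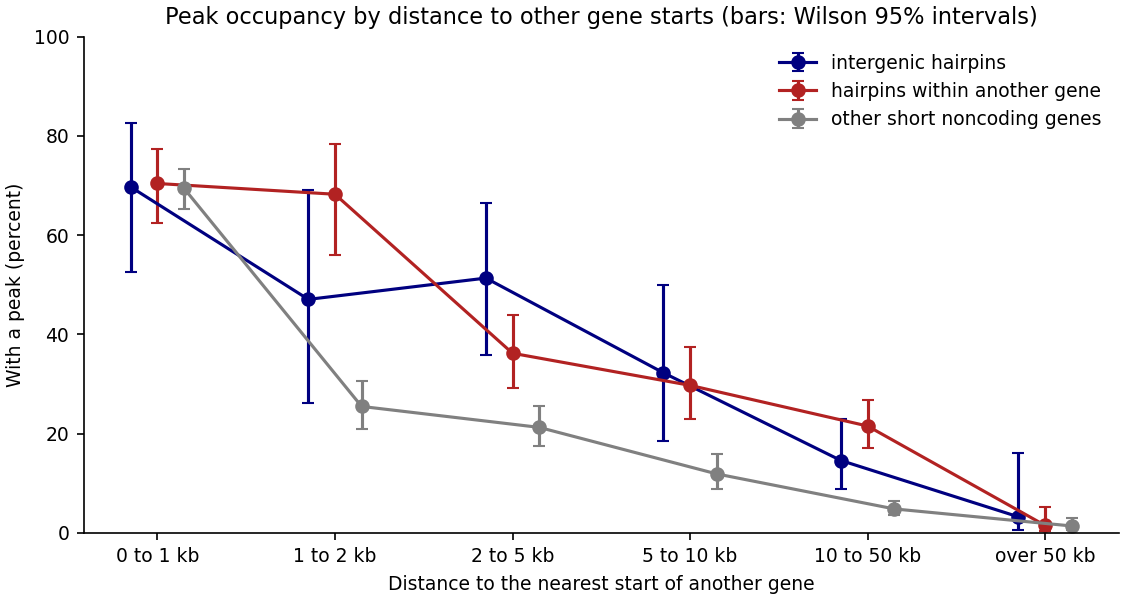
Share of genes with a peak (y axis, percent) by distance to the nearest start of another gene (x axis), for intergenic hairpins, hairpins within genes and other short noncoding genes, with Wilson 95% intervals. All 3 lines start near 70% within 1 kb and end below 4% beyond 50 kb.

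For 199 of the 382 marked hairpins, 52.1%, at least 1 peak of the region lay over 1 kb from every start of any other gene, counted as above. These were 38 intergenic hairpins and 161 within genes. The strongest such peak of a hairpin had a median signal of 5.90, near the median of all replicated peaks. The remaining 183 hairpins were marked only by peaks within 1 kb of such a start. The peak rule cannot tell a neighbour's promoter there from that of the microRNA.

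Peaks lay more often on the upstream side of the hairpin than on the downstream side, by a modest margin. Strand was known for 357 marked hairpins. The summit of the strongest peak was upstream of the 5′ end in 211 and downstream in 146, with a median position of −172 bp. For the 73 intergenic hairpins among them it was upstream in 48 and downstream in 25, with a median of −342 bp. These counts are of hairpins, so a peak shared by a cluster counts once for each member. All marked intergenic hairpins together held 66 distinct peaks at 52 loci. Over the 151 intergenic loci of known strand, a peak covered the hairpins in 43, a peak lay within 2 kb upstream in 24 and within 2 kb downstream in 16. Within 10 kb the counts were 60 upstream and 59 downstream, so the sides did not differ in the presence of a peak at that range. The best signal within 10 kb did differ in level, with medians of 14.3 upstream and 7.76 downstream at intergenic loci, and of 17.7 and 8.92 at the 695 loci within genes. In the latter, upstream also points toward the start of the host where the hairpin is on the strand of the host.

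The promoter of the host gene was marked far more often than the hairpin inside it. For 552 hairpins on the strand of their host, at least 1 host start carried a peak within 1 kb in 487, 88.2%. Of all annotated starts, counted singly, 55.0% did. These shares are not like for like. A host with several starts counts as marked when any of them is, and counts once per hairpin. Host and hairpin were both marked in 194 cases, the host alone in 293, the hairpin alone in 11 and neither in 54. The hairpin was marked in 39.8% of cases with a marked host and in 16.9% without. For a hairpin near the host start, the same peak can mark both, so part of this gap follows from the rule. Over 5 kb from every start the shares were 24.2% of 293 and 13.0% of 46. Of the 339 such hairpins over 5 kb from every start, 293 had a marked host, 86.4%, and 222 of these hairpins carried no peak of their own. On the opposite strand 68 of 87 hairpins had a marked host start.

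The 11 hairpins that were marked in a host without a marked start are a small set, and over 5 kb from starts 71 marked hairpins on the host's strand had a marked host and 6 did not. The long noncoding genes named as microRNA hosts were themselves marked in 10 of 13 cases (Wilson 95% interval 49.7 to 91.8%), beside 42.6% of all long noncoding genes and 47.4% of all genes under the same rule. Gene length was not matched, with Mir100hg at 238660 bp and a median of 8427.5 bp over long noncoding genes. Over the whole gene region, Mir670hg had the highest signal, 45.5, followed by Mir22hg at 42.4, Mir124a-1hg at 37.1, Mir124-2hg at 32.4 and Mir17hg at 32.2. Lower values were found at Mir9-3hg (27.8), Mir1a-1hg (17.3), Mir100hg (9.20), Mir205hg (7.41) and Mir99ahg (3.03). These peaks need not lie at the gene's start. The summit lay 86542 bp after the 5′ end at Mir670hg, 71091 bp at Mir99ahg and 35622 bp at Mir9-3hg, but 546 bp at Mir22hg and 701 bp at Mir1a-1hg. The peak of Mir99ahg had no counterpart in the list of replicate 1 and a signal of 3.49 in replicate 2. Mir217hg, Mir155hg and Mir133a-1hg had no peak in any list. They are named for microRNAs of pancreas, activated immune cells and muscle.

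The share of marked hairpins rose with the CpG content of the region, from 12.6% in the poorest to 100% in the richest bin. CpG content was read from the mm9 genome, since no mm10 genome was used here, at 1067 of 1169 hairpins, 91.3%, placed by an exact and unique match of the hairpin sequence or by name. The observed-to-expected CpG ratio compares the number of CpG dinucleotides with the number that the C and G content alone would give. Below a ratio of 0.2, 48 of 381 hairpins were marked in mm10, 12.6% (interval 9.64 to 16.3). From 0.2 to 0.4 it was 172 of 541, 31.8% (28.0 to 35.8). From 0.4 to 0.6 it was 71 of 77, 92.2% (84.0 to 96.4). At 0.6 or more all 68 hairpins, at 63 loci, were marked (interval 94.7 to 100). Marked hairpins had a median ratio of 0.325 and a median GC content of 53.5%, and unmarked ones 0.206 and 44.5%.

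CpG content is itself high near gene starts, so the same count was made over 5 kb from every other start. There the shares were 6.38% of 282, 24.2% of 351, 11 of 14 and 10 of 10 in the same 4 bins. The 10 hairpins of the last bin were Mir193a, Mir203, Mir1904, Mir3083, Mir1893, Mir129-2, Mir129b, Mir124a-3, Mir8120 and Mir9-3, named after their values were seen. Mir193a, with a ratio of 0.731, had a signal of 34.1 in the replicated list, 32.6 in replicate 1 and 28.2 in replicate 2. Mir203, an epidermal microRNA, had a ratio of 0.622 and signals of 15.0, 14.9 and 13.0 in the same lists. Mir129-2 and Mir129b, at 1 locus, varied most between the replicates, Mir129-2 at 21.0 and 7.42.

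Only 6 hairpins with a ratio of at least 0.4 were unmarked. These were Mir127, Mir434, Mir692-3, Mir6391, Mir802 and Mir6244, also named after their values were seen. Mir127 (ratio 0.484) and Mir434 (0.406) both lie in the gene Rtl1 of the imprinted region described below, whose transcript they are known to target. Mir692-3 was marked in the mm9 list and lies 152 bp from the start counted for the pseudogene Ftl1-ps1, which may be either of its ends.

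**Figure D3:**
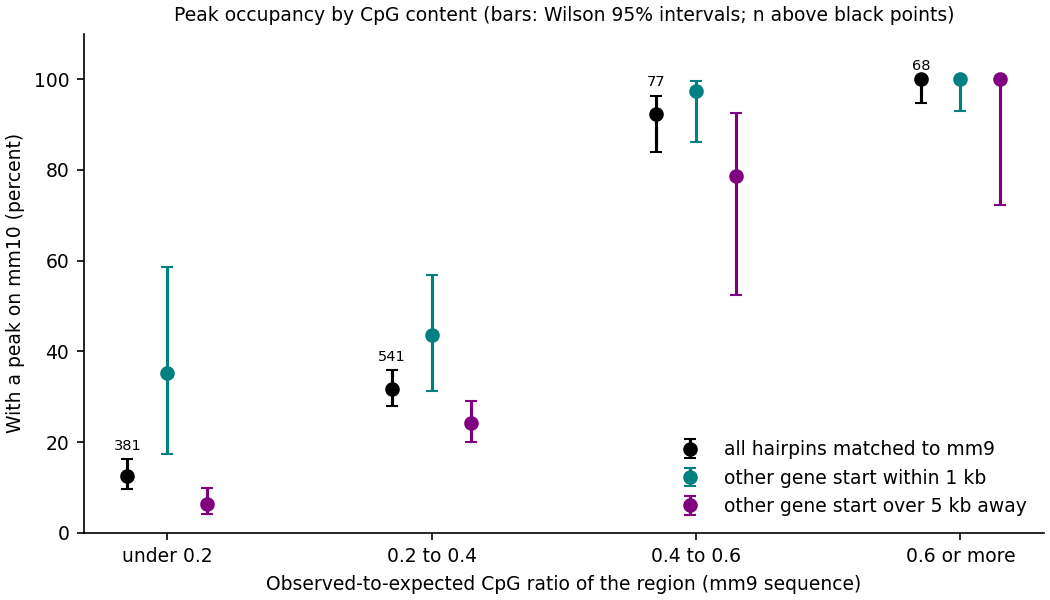
Share of hairpins with a peak on mm10 (y axis, percent) by the observed-to-expected CpG ratio of the region (x axis), for all matched hairpins and for those near to or far from the start of another gene, with Wilson 95% intervals. The share of all matched hairpins rises from 12.6% to 100% across the bins, and hairpins over 5 kb from other starts follow the same order.

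The Mir290 to Mir295 cluster lies at chr7:3218626-3220841 on the plus strand of mm10 and holds Mir290a, Mir290b, Mir291a, Mir292, Mir292b, Mir291b, Mir293, Mir294 and Mir295. Mir290b and Mir292b are annotated on the minus strand, opposite Mir290a and Mir292. The table places all 9 inside another gene, and the genes that overlap the cluster are Nlrp12 and D7Ertd143e. Mir290a and Mir290b end 76 and 89 bp before the annotated start of D7Ertd143e. All 9 were marked in each of the 4 mm10 lists. They share 1 replicated peak of 5245 bp, chr7:3216184-3221428, that runs from 2442 bp before to 2802 bp after the 5′ end of Mir290a. Its signal was 50.4 in the replicated list, 61.2 in replicate 1 and 44.1 in replicate 2, a mean of 52.7 ± 12.1 over the replicates (SD, n = 2). It was higher than 91.9% of all replicated peaks and ranked 63 among the 316 marked hairpin loci. The replicates differed more here than at the other 4 clusters, and in both the signal was above 40.

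The summit of this peak lay 402 bp before Mir290a in the replicated list and 476 bp before it in replicate 2, but 307 bp after it in replicate 1. All 9 hairpins lie within the peak. A weaker peak followed farther upstream, from 5647 to 2677 bp before Mir290a, with a signal of 11.7 in the replicated list, 10.7 in replicate 1 and 9.37 in replicate 2. Joined with its neighbours the cluster lay in a domain of 12230 bp, wider than 99.6% of all domains. The domain measured 7852 bp in replicate 1 and 12825 bp in replicate 2. The annotated start of D7Ertd143e is 158 bp after the 5′ end of Mir290a, inside the peak, and the start of Nlrp12 carried no peak in any mm10 list.

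The Mir302 to Mir367 cluster was marked at a low level. Its hairpins Mir302b, Mir302c, Mir302a, Mir302d and Mir367 lie at chr3:127545228-127545807 on the plus strand, inside the protein-coding gene Larp7, a factor of the 7SK RNA particle, and the noncoding gene Gm51018. All 5 were marked in each mm10 list by 1 peak. It was 975 bp wide in the replicated and pooled lists, chr3:127544945-127545919, 922 bp in replicate 1 and 735 bp in replicate 2. Its summit lay 20 bp after the 5′ end of Mir302b in the replicated list, 17 bp in replicate 1 and 379 bp in replicate 2. Its signal was 3.74 in the replicated list, 4.41 in replicate 1 and 4.15 in replicate 2, a mean of 4.28 ± 0.184 (SD, n = 2). It exceeded 24.7% of all replicated peaks and ranked 282 among the 316 marked loci. The start of Larp7, 8121 bp from Mir302b on its downstream side, carried a separate peak with a signal of 61.4 in the replicated list, 58.5 in replicate 1 and 50.3 in replicate 2. The start of Gm51018 lies 139 bp before Mir302b, within the weak peak.

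In each replicate the signal at Mir290 to Mir295 was more than 10 times that at Mir302 to Mir367, 61.2 against 4.41 and 44.1 against 4.15. The weak peak appeared in both replicates at similar signals, with −log10 q of 6.34 in replicate 1 and 5.27 in replicate 2. A small group of cells with a marked cluster and a low level in all cells cannot be told apart in such pooled chromatin.

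The Mir17 to Mir92a cluster, with Mir17, Mir18, Mir19a, Mir20a, Mir19b-1 and Mir92-1, lies at chr14:115043671-115044506 on the plus strand. It is the transcript that gives miR-17-5p, miR-20a-5p and miR-92a-3p above. All 6 hairpins were marked in each mm10 list. In the replicated and pooled lists the peak over them was 5347 bp wide, chr14:115039950-115045296. The strongest peak there was 4602 bp wide in replicate 1 and 3107 bp in replicate 2. The signal was 32.2 in the replicated list, higher than 84.7% of peaks and rank 118 among marked loci. The replicates gave 29.6 and 27.2, a mean of 28.4 ± 1.70 (SD, n = 2). In the replicated list the peak reached 3721 bp upstream of Mir17. Its summit lay 1251 bp upstream, 1249 bp in replicate 1 and 1238 bp in replicate 2. When a peak's summit had to lie inside the region, none of the 6 hairpins was marked. In replicate 2 the upstream part was called as a peak of its own, with a signal of 19.7 from 3723 to 1781 bp before Mir17.

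The annotated start of its host Mir17hg falls 719 bp after the 5′ end of Mir17, inside the cluster. By that annotation 4 of the hairpins, Mir17, Mir18, Mir19a and Mir20a, count as intergenic and only Mir19b-1 and Mir92-1 as within the host. The summit of the mark lies at −1970 bp from that annotated start.

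**Figure D4:**
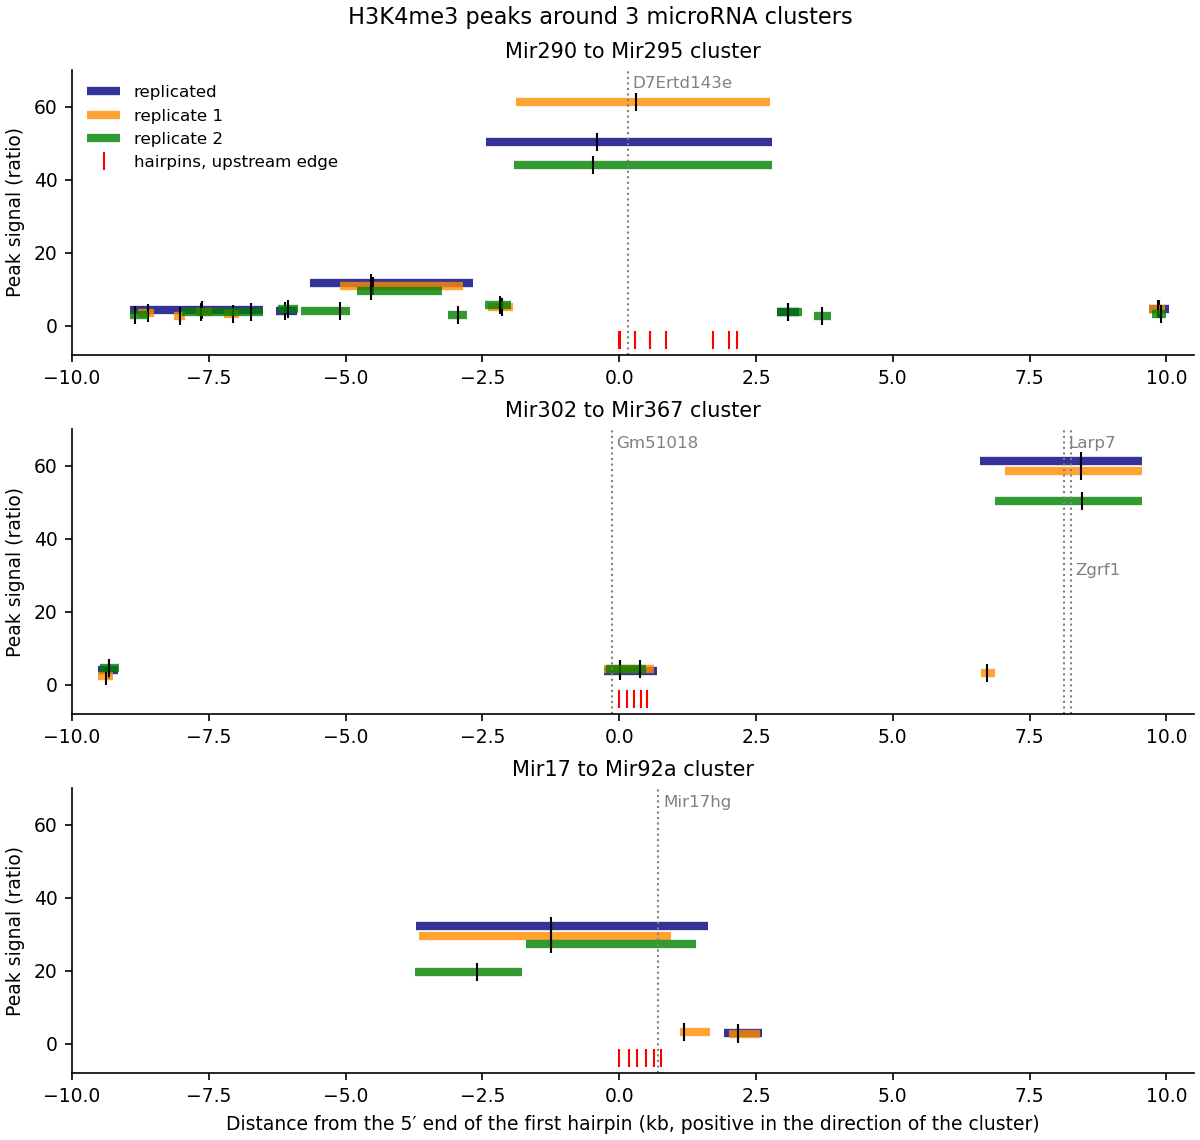
Replicated and single-replicate H3K4me3 peaks (bars, height gives the signal as a ratio) around 3 microRNA clusters, against distance from the 5′ end of the first hairpin (x axis, kb). Black ticks mark summits, red ticks the upstream edge of each hairpin along the cluster and dotted lines annotated gene starts. The hairpins of Mir290 to Mir295 lie under a peak near 50, those of Mir302 to Mir367 under a peak near 4, and those of Mir17 to Mir92a lie downstream of the summit.

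The paralogs of the Mir17 to Mir92a cluster differed from each other. Mir106a, Mir18b, Mir20b, Mir19b-2, Mir92-2 and Mir363, at chrX:52741693-52742567 on the minus strand, were all marked by a peak of 4228 bp with its summit 1778 bp upstream of Mir106a. The signal was 37.8 in the replicated list, 35.5 in replicate 1 and 31.9 in replicate 2, a mean of 33.7 ± 2.55 (SD, n = 2), and ranked 106 among marked loci. The start of the noncoding gene Kis2 lies 2026 bp upstream of Mir106a, inside that peak. Mir106b, Mir93 and Mir25, at chr5:138165321-138165818 on the minus strand within Mcm7, a subunit of the replicative helicase, were marked by a weaker peak of 2759 bp. Its signal was 5.63 in the replicated list, and the highest peak at the cluster had 5.56 in replicate 1 and 5.12 in replicate 2, a mean of 5.34 ± 0.316 (SD, n = 2), rank 239. The peak at the Mcm7 start, upstream of the hairpins, had 56.1 in the replicated list, 51.4 in replicate 1 and 47.4 in replicate 2. The strong peaks of the Mir17 to Mir92a and Mir106a to Mir363 clusters both had summits over 1 kb upstream of the first hairpin, and the Mir106b to Mir25 cluster had its strong peak at the start of the host.

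The RefSeq promoter windows of the genes that start at these clusters, 250 bases before to 50 after the annotated start on GRCm38.p6, show how the hairpins sit relative to the annotation. They are written 5′ to 3′ on the strand of the gene, with bases inside a microRNA hairpin in capitals.
D7Ertd143e, chr7:3218534-3218833, plus strand: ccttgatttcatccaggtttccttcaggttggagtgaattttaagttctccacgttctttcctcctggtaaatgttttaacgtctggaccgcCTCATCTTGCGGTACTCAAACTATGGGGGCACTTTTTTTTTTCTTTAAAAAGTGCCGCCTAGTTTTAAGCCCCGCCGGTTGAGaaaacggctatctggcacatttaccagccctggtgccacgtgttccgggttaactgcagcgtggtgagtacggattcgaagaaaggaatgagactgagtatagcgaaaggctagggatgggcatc
Gm51018, chr3:127544839-127545138, plus strand: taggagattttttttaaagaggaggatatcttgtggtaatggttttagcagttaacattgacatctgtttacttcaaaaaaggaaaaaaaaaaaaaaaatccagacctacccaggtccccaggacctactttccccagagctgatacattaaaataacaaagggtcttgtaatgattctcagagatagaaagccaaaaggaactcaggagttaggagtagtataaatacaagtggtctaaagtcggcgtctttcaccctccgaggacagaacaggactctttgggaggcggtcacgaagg
Mir17hg, chr14:115044140-115044439, plus strand: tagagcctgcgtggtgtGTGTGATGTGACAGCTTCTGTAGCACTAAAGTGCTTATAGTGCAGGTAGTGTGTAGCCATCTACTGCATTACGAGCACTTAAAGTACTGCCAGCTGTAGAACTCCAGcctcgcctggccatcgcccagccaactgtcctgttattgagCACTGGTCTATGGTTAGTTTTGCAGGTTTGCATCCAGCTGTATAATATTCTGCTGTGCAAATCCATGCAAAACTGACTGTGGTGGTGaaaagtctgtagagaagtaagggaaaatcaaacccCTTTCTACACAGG
Kis2, chrX:52744544-52744843, minus strand: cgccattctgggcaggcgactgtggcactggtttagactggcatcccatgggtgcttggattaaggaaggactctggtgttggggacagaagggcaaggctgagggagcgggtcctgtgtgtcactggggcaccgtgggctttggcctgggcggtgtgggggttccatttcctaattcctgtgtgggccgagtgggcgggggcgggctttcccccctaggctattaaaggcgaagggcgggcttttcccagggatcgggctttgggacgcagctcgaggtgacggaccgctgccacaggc
The window of D7Ertd143e holds the hairpin of Mir290a and Mir290b, with 83 hairpin bases before the annotated start. The window of Mir17hg holds 207 hairpin bases, from Mir20a, Mir19b-1 and Mir92-1, so it samples the body of the cluster. Those of Gm51018 and Kis2 hold none.

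The windows were searched on both strands for the TATA box core TATAAA, the GC box GGGCGG, the E-box CACGTG and the octamer ATGCAAAT, as exact letters. TATAAA was found 30 bases before the start of Gm51018, and 13.6% of the 32851 promoter windows hold it. CACGTG was found 39 bases before the start of D7Ertd143e, and 7.15% of windows hold it. GGGCGG was found 4 times in the window of Kis2, and 35.7% of windows hold it at least once. ATGCAAAT was in none of these windows and in 1.74% of all. The observed-to-expected CpG ratio was 0.825 for D7Ertd143e, 0.536 for Kis2, 0.416 for Gm51018 and 0.242 for Mir17hg, against a median of 0.384 over all windows. A match is a description of the letters only.

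The order of the clusters by signal did not hold unchanged on the mm9 build, where the authors' broad regions were used. The Mir17 to Mir92a cluster had a signal of 17.8 in the series list, 19.4 in replicate 1 and 24.5 in replicate 2, and Mir302 to Mir367 had 3.18, 3.71 and 2.71. For Mir290 to Mir295 the values were 10.9, 17.5 and 33.4, over regions of 13600, 9600 and 5000 bp. Mir290 to Mir295 was above Mir17 to Mir92a only in replicate 2 on that build. A region's value on mm9 covers its whole width, and the widths differ among these lists. Mir302 to Mir367 was lowest of the 3 in every list on both builds.

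MicroRNAs of differentiated tissues were marked to very different extents in these cells. Of 17 hairpins known from the nervous system, 14 were marked, at 11 of 14 loci, with a median signal of 25.7 among the marked. Of 11 hairpins of heart and skeletal muscle, 2 were marked, at signals below 5. Beside these, 32.7% of all hairpins were marked, with a median of 18.8. The lists are short, they were chosen with earlier results of these data known, and members of 1 cluster share a peak.

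The neural microRNAs included Mir219a-1 and Mir219c, known from the oligodendrocyte lineage, with a signal of 58.0 in the replicated list, 50.7 in replicate 1 and 51.8 in replicate 2. They lie 303 and 332 bp from the start of Ring1, a Polycomb gene, and share its peak. The 3 copies of Mir124a, the most abundant microRNA of neurons, were all marked, Mir124a-1 at 37.1, Mir124a-2 at 32.4 and Mir124a-3 at 29.6. For Mir124a-3, 26829 bp from the nearest other start, the replicates gave 28.4 and 25.9. The 3 copies of Mir9, a regulator of neural progenitors, were marked at 21.7 (Mir9-3), 12.5 (Mir9-1) and 5.03 (Mir9-2). Mir132 and Mir212, activity-dependent microRNAs of neurons, shared a peak of 34.1. Mir128-1, Mir138-1 and Mir138-2 had no peak, and Mir128-2 had 3.74.

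In the muscle list Mir499, in the myosin gene Myh7b, had a signal of 4.46 in the replicated list, 4.65 in replicate 1 and 4.15 in replicate 2. Mir208a, in the cardiac myosin gene Myh6, had 3.45, 2.69 and 3.89. The Mir1a and Mir133 hairpins, the main microRNAs of striated muscle, had no peak in the replicated list, Mir1a-1 and Mir1a-2 among them.

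The blood list held 8 marked of 14 hairpins at 4 of 8 loci, beside 32.7% of all hairpins and 35.2% of all hairpin loci. Mir150, a lymphocyte microRNA, had the highest signal, 67.3, with 58.0 and 62.7 in the replicates. Mir142b, of a locus used across blood cells, had 17.8, 16.6 and 18.7 in the replicated list and replicates 1 and 2. Mir144 and Mir451a, the erythroid pair, shared a peak of 5.30. Mir155 and Mir181a-1 had no peak. Of 10 liver and pancreas hairpins 3 were marked, with Mir375, a microRNA of pancreatic islets, at 14.7 and Mir194-2 at 5.46, while Mir122, the main microRNA of hepatocytes, and Mir122b had none.

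Among 7 epithelial hairpins, at 4 loci, 6 were marked, all by peaks away from other starts. Beside the lists of this paragraph, 32.7% of all hairpins were marked. Most of these lists hold few hairpins, so nothing particular to a tissue is read from their counts. Mir141 and Mir200c, which hold cells in an epithelial state, shared a peak of 19.6 in the replicated list and 17.9 in each replicate. Mir200a and Mir200b of the same family had 4.03, and Mir429 beside them had none. In the Hox clusters 3 of 5 were marked, Mir10b at 17.3, Mir10a at 7.33 and Mir196b at 4.60, and Mir196a-1 and Mir196a-2 were not. Of the hairpins induced by p53, Mir34b and Mir34c shared a peak of 13.2 with replicates of 14.2 and 10.9, while Mir34a had none. Of 14 mesenchymal and vascular hairpins 4 were marked, 28.6%, near the share of all hairpins. Mir143 and Mir145a, of smooth muscle, shared a peak of 18.7 that lies at the start of Bvht, and Mir21a and Mir21b had none. Among 5 microRNAs known to target pluripotency factors, Mir145a was the only 1 with a peak, and Mir134 and Mir145b were unmarked.

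**Figure D5:**
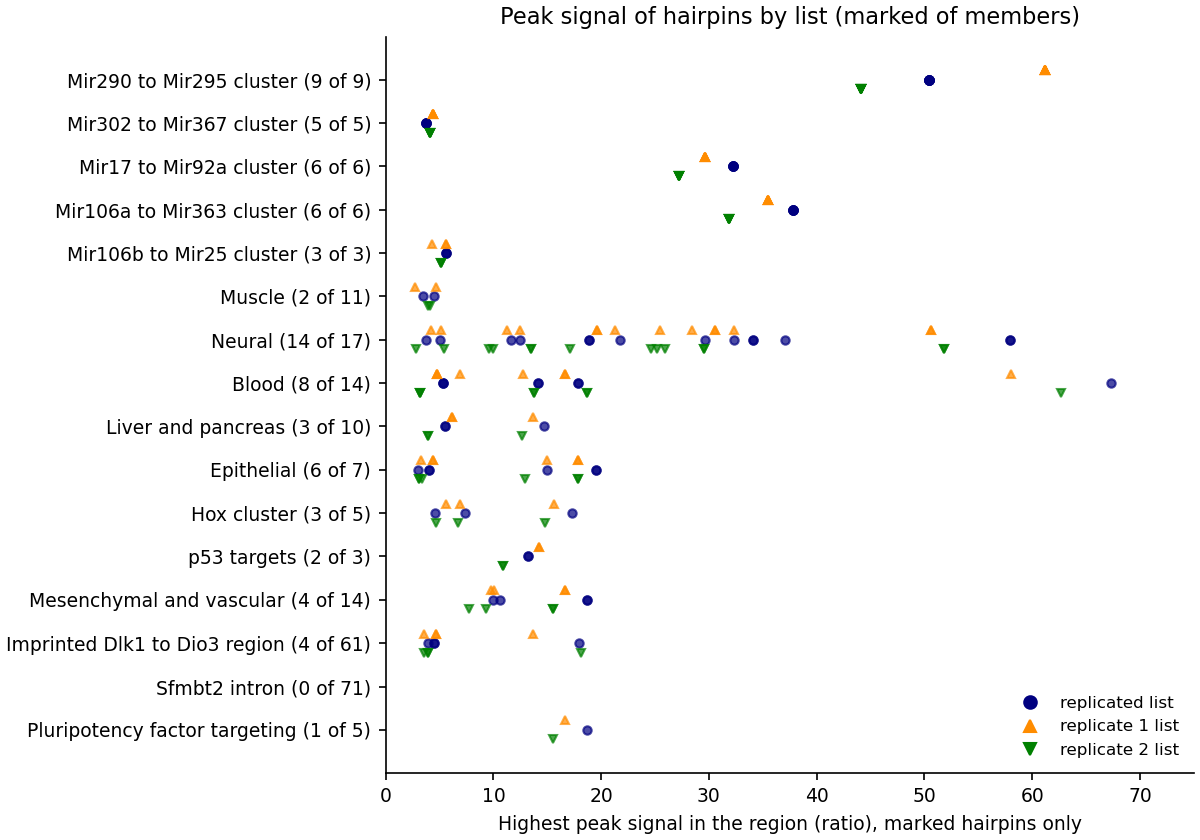
Highest peak signal in the region (x axis, ratio) for each marked hairpin of 16 lists, in the replicated list and in each replicate, with the count of marked members beside each name. The neural list reaches from 3.74 to 58.0, and none of 71 hairpins in the Sfmbt2 intron has a point.

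Large imprinted clusters were nearly free of peaks. Inside Sfmbt2, an imprinted gene of the placenta, the table places 71 hairpins of the Mir297, Mir466, Mir467 and Mir669 groups over 51.6 kb, chr2:10466663-10518279. No hairpin was marked, and no peak lay in the span in any of the 4 mm10 lists. The Sfmbt2 start had a signal of 33.9 in the replicated list, 30.1 in replicate 1 and 30.8 in replicate 2. These hairpins are near-identical copies, and how well reads can be placed there was not tested. This 1 locus holds 71 of the 787 unmarked hairpins.

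In the imprinted Dlk1 to Dio3 region of chromosome 12, noncoding RNAs and microRNAs are expressed from the maternal chromosome. Of 61 hairpins there, at 6 loci, 4 were marked in the replicated list, 4 in replicate 1 and 6 in replicate 2. In the replicated list 32.7% of all hairpins were marked. Mir1247, in Dio3os, had a signal of 18.0 in the replicated list, 13.7 in replicate 1 and 18.1 in replicate 2. Mir341 had 4.46, 4.65 and 3.89, and Mir127 and Mir134 had no peak in the replicated list. The start of Meg3, the first noncoding gene of the domain, carried a peak of 33.4 with replicates of 26.7 and 33.4. No peak was found at the starts of Rian, Mirg and Rtl1.

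Hairpins were also grouped by seed. A mature sequence was available for 1002 hairpins, with 1340 different seeds, of which 45 occurred at 3 or more loci. All loci were marked for 4 of these seeds, and none for 15, beside 35.2% of all hairpin loci. Most of these seeds sit at few loci, so nothing particular to a family is read from these counts. The seed AUUGCAC, that of miR-25, miR-32, miR-92a, miR-92b, miR-363 and miR-367, had all of its 7 hairpins marked, at 6 loci on 5 chromosomes. Their signals ran from weak to strong, with Mir367 at 3.74, Mir32 at 4.17, Mir25 at 5.63, Mir92b at 22.6, Mir92-1 at 32.2 and both Mir363 and Mir92-2 at 37.8. The seed of miR-17-5p, AAAGUGC, was marked at 6 of 7 hairpins and 3 of 4 loci, with Mir6383 unmarked. The seed AGCAGCA of miR-15 and miR-16, which slow the cell cycle, was marked at 2 of 11 hairpins and 1 of 8 loci, the marked ones being Mir195a and Mir497. The miR-30 seed GUAAACA was marked at 0 of 5 hairpins, and that of miR-103 and miR-107, GCAGCAU, at 0 of 3. The seeds of miR-9-5p and miR-9-3p, CUUUGGU and UAAAGCU, come from the same 3 hairpins, and both count among the 4 seeds with all loci marked.

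The strongest intergenic loci were mostly microRNAs that start beside another gene. Mir8105 had the highest signal, 80.5, with 69.3 and 72.0 in the replicates, 135 bp from a tRNA gene. Mir130a followed at 75.2, then Mir150 at 67.3, Mir5627 at 66.0, Mir1945 at 62.8, Mir484 at 62.7, Mir2861 with Mir3960 at 61.8, Mir5615-1 with Mir5615-2 at 60.5, Mir219a-1 with Mir219c at 58.0 and Mir210 at 55.5. For the first 9 of these 10 loci another start lies within 1242 bp, such as Dnajb9 at 245 bp for Mir5627, Gspt1 at 43 bp for Mir1945 and Marf1 at 352 bp for Mir484.

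Mir210, the microRNA most strongly induced by low oxygen, was the exception. Its nearest other start, of Rassf7, lies 5524 bp away, and its own peak had a signal of 55.5 in the replicated list, 52.1 in replicate 1 and 47.4 in replicate 2, with the summit 64 bp after the 5′ end of the hairpin. The next intergenic loci away from other starts, ranked after their values were seen, were Mir7229 at 53.3, Mir8120 at 43.9, Mir193a at 34.1 and Mir124a-3 at 29.6. Mir7229 varied between 39.2 and 47.4 in the replicates.

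Within genes, the strongest peaks away from every other start were at Mir148a, Mir1893, Mir1904, Mir7240 and Mir124a-2. Mir148a, at chr6:51269812-51269910, had 60.7 in the replicated list, 51.1 in replicate 1 and 56.0 in replicate 2, and its summit lay at −820 bp from the 5′ end of the hairpin. The nearest other start, of the noncoding gene Gm38821, is 10662 bp away. Mir1893, in the chromatin gene Epc1, had 59.1 with replicates of 51.1 and 54.7, and lies 25462 bp from the nearest start. Mir1904, in the phosphodiesterase gene Pde4d, had 48.6 with replicates of 42.6 and 42.2, and lies 102585 bp from the nearest start. For Mir1904 the region also has a CpG ratio of 0.715, and for Mir1893 0.984.

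The widest domains at intergenic hairpins were those of Mir181c and Mir181d at 18543 bp, of Mir7229 and Mir7230, which share a domain of 18375 bp, of Mir195a, Mir497 and Mir497b at 15147 bp, and of Mir1934 at 13751 bp. Width was stable between replicates for Mir181c and Mir181d, at 18515 and 17358 bp, and for Mir7229, at 18078 and 18126 bp. It was not for Mir195a and Mir497, at 15016 and 2709 bp, or for Mir1934, at 3183 and 13688 bp. The signals in these wide domains ranged widely. At Mir181c and Mir181d the signal was 14.1, with 6.85 and 13.8 in the replicates, at Mir195a and Mir497 it was 13.2, and at Mir7229 it was 53.3. Some of the strongest loci were also wide, with 12687 bp at Mir219a-1 and 11180 bp at Mir130a.

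On mm9, 393 of the 1067 placed hairpins overlapped a broad region of the series list, 36.8%, and 359 of the same hairpins were marked on mm10, 33.6%. Both builds marked 350, mm10 alone 9 and mm9 alone 43. The mm9 replicates marked 370 and 357.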

How the data were processed

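H3K4me3 ChIP-seq peaks of E14TG2a.4 cells were deposited for 2 biological replicates of 1 group. On mm10 the authors deposited 4 narrowPeak lists (replicate 1, replicate 2, pooled and replicated), each peak with a signal value (a ratio), a p-value and a q-value (both as −log10), per the deposited file descriptions. On mm9 they deposited 3 broadPeak lists with a ratio and p-values and q-values given directly. The aligner, the peak caller and its thresholds are not given in the sources used, and depth is unknown. All 62128 replicated peaks stand in the pooled list with the same edges and signal, so a replicated signal is the pooled value.

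Overlaps of at least 1 bp were computed with Python 3.11.15, pandas 2.3.3, numpy 2.4.6 and scipy 1.17.1, and the code was tested on simulated data. Members lay within another gene when any gene of another kind overlapped them. Strand and sequence came from the RefSeq tables, which gave strand for 1016 hairpins. Genes absent from the promoter annotation, hairpins aside, entered distances with both ends as starts. The gene table holds 49943 genes on the main chromosomes, which served as background. Shares carry Wilson 95% intervals. No test was run, since there is 1 group and genes are not replicates. Replicates are given as mean ± SD (n = 2).

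The members and the 16 lists were chosen with earlier results of these data known. Named genes were all members of 5 clusters, the 10 intergenic loci with the highest signal, the 5 with the widest domain, the 5 loci within genes with the strongest peak away from other starts, and per list the 2 highest and the first 2 unmarked in order of name. Others are named as examples. Alternatives covered each replicate alone, the pooled list, −log10 q of at least 5, flanks of 0 bp, 500 bp and 2 kb, 200 bp of overlap, summits, other hosts, other joining of loci and mm9.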

Additional observations from a re-analysis of the deposited data

How the results depend on the processing

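The count of marked members was 392 and ranged from 285 with no flank to 456 with a flank of 2 kb. With only protein-coding genes as hosts, 128 marked members counted as intergenic in place of 81. With the summit required inside the region, 0 of 6 hairpins of the Mir17 to Mir92a cluster were marked, since its summit lies upstream. With no flank, 117 members in place of 206 had a peak away from other starts. The median signal of marked members was 18.8, and 13.4 in the pooled list and 13.6 to 14.9 in the lists of single replicates, which hold more weak peaks. Their median peak width was 1968 bp, and 1736 bp in the pooled list, 1477 to 1507 bp in the lists of single replicates, 2078 bp with −log10 q of at least 5, 2095 bp with a flank of 500 bp and 1833.5 bp with a flank of 2 kb. The other 79 counts under an alternative, the use of hairpins only among them (chosen after seeing the data), stayed within 1.5 times the main count. No paired analysis was possible because both replicates belong to 1 group. Depth is unknown, so an unmarked hairpin is one where no peak passed the authors' threshold, and the deposited lists do not show how far below it the signal was.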
